A study of Mus musculus with 12 samples.

Results

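Livers of control mice on a high-fat diet (HFD) were compared with livers of control mice on a standard diet (SD). The comparison used the 7 libraries that the titles name as controls, 4 on HFD and 3 on SD, of the 12 libraries of the series. The 5 knockout libraries were not members and entered none of these groups. On HFD, transcripts for sugar phosphorylation (Khk, Pfkl), for several late steps of cholesterol synthesis (Nsdhl, Lss, Hsd17b7), for polyunsaturated fatty acid synthesis (Fads1, Fads2, Elovl5) and for fatty acid uptake and lipid droplets (Cd36, Acsl1, Pnpla2) were higher. Transcripts of Mttp, Cat, B2m and of the drug-metabolising enzymes Cyp3a11 and Cyp2c55 were lower. Some of the steepest differences were in genes that share long stretches of sequence with another gene or a pseudogene, such as Gapdh and the ribosomal proteins. Sequencing depth also differed between the diets, so any of these differences may be technical in part, and diet and technical differences cannot be told apart.

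All 7 libraries came from livers of male mice aged 14 weeks, of a mixed 129SvEV-C57BL/6 background, that were F/F, that is, they carried floxed alleles of Nr5a2, the gene of the nuclear receptor LRH-1. The titles mark them as Nr5a2 fl controls, and the series' text states that control mice were infected with AAV8-eGFP, a viral vector that brings a green fluorescent protein and no Cre recombinase. Floxed alleles and the viral vector were thus shared by both diets. HFD was a purified diet sold as D12492, given for 6 weeks, and the other group ate the standard diet. The labels give no batch, run or date, and they do not state in words that each library came from a separate mouse, so a p-value here speaks only of library-to-library spread, part of which may be technical.

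The liver takes up glucose and fatty acids from portal blood, makes fatty acids and cholesterol from acetyl-CoA, stores surplus fat as triglyceride in lipid droplets and secretes it in very low density lipoproteins. Carbohydrate drives lipogenic genes through the transcription factors ChREBP (Mlxipl) and SREBP-1c (Srebf1), a fall in membrane cholesterol drives the sterol genes through SREBP-2 (Srebf2), and fatty acids drive oxidation and droplet genes through PPAR alpha and PPAR gamma. Cholesterol leaves the liver as such or after conversion to bile acids.

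The 2 diets also differed in how the libraries looked. Total counts were 2478857 to 3404570 per library on SD and 7876724 to 10875478 on HFD, and the number of genes with a count was 13586 to 13916 and 15137 to 15828. Shares of counts did not overlap for the ribosomal RNA gene Rn45s (0.294% to 0.389% on SD, 0.985% to 1.32% on HFD), for cytosolic ribosomal protein genes (0.143% to 0.190% and 0.692% to 0.821%), for the nuclear RNA Malat1 (0.461% to 0.689% and 1.13% to 1.37%) or for albumin (8.82% to 11.1% and 7.58% to 8.45%). The first principal component of log2 CPM held 71.5% of the variance and put the 3 SD libraries between -50.8 and -49.3 and the 4 HFD libraries between 36.7 and 38.2. Diet and any technical difference between the 2 groups of libraries therefore cannot be told apart, and thinning every library to the smallest total removes the difference in depth only.

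Genes with a near-identical copy elsewhere in the annotated transcriptome stood apart, and the following sequences show what such a copy looks like. Each pair gives 60 coding bases of a gene from a GENCODE transcript and the matching bases of its longest copy, with capitals at the bases that differ. The pairs were picked to show the range from identical to clearly different. Gapdh, a glycolytic enzyme (GRCm38 chromosome 6, 125161715 to 125166467, minus strand), is shown with the processed pseudogene Gm7336 on chromosome 7:
Gapdh: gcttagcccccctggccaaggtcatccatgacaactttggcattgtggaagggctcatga
Gm7336: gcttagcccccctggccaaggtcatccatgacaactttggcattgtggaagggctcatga
Idi1, the isomerase of isopentenyl diphosphate (chromosome 13, 8885501 to 8892451, plus strand), is shown with the processed pseudogene Gm13502 on chromosome 2:
Idi1: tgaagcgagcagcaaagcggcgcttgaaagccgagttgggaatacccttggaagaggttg
Gm13502: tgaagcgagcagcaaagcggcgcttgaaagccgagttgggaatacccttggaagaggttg
Psme2, a subunit of the proteasome activator (chromosome 14, 55587441 to 55591113, minus strand), is shown with Psme2b on chromosome 11:
Psme2: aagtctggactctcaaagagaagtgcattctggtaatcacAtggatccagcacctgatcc
Psme2b: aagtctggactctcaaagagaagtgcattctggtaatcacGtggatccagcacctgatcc
Cyp3a11, a drug-metabolising cytochrome P450 (chromosome 5, 145854426 to 145879964, minus strand), is shown with Cyp3a41a on the same chromosome:
Cyp3a11: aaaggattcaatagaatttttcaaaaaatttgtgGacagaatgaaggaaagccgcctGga
Cyp3a41a: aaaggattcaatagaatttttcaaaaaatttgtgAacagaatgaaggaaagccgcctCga
The Gapdh stretch was found unchanged in transcripts of 45 other annotated genes and the Idi1 stretch in 1, whereas the Psme2 and Cyp3a11 stretches were found in no other gene.

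These pairs behaved differently between the diets. Gapdh stood at 0.770, 2.38 and 0.301 CPM (the count scaled to the TMM-normalized library size) in SD controls 1 to 3 and at 700.0, 561, 519 and 578 CPM in HFD controls 1 to 4 (log2 fold change 9.08, SE 0.30, edgeR adjusted p = 4.9e-10). A housekeeping enzyme was thus nearly without counts in every SD library. Idi1 stood at 2.70, 4.75 and 2.11 CPM on SD and 152, 140.0, 211 and 169 on HFD (5.75, SE 0.25, adjusted p = 4.98e-09). Psme2b fell from 24.6, 32.5 and 25.0 CPM to 1.07, 0.611, 1.13 and 1.53 CPM (-4.63, adjusted p = 3.44e-08), while its near-twin Psme2 rose from 8.47, 7.92 and 7.22 to 25.5, 28.8, 26.2 and 30.7 CPM (1.82, adjusted p = 3.88e-06). The ribosomal pseudogene Rpl14-ps1 fell (-3.75, adjusted p = 5.73e-07) while Rpl14 itself rose (0.89, adjusted p = 0.000883). In these 2 pairs the groups did not overlap for either partner and the partners moved in opposite directions. Psme2, Rpl14 and Rpl14-ps1 were picked from the results for this contrast or by the size of their fall. Without SD control 2, Gapdh gave 10.10.

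Over the whole table, 11823 genes had enough counts to be tested, and 3475 differed (29.4%) at an adjusted p under 0.05 by the quasi-likelihood test of edgeR, 1929 higher (16.3%) and 1546 lower (13.1%) on HFD. At an unadjusted p under 0.05 the share was 40.1%. At least 2-fold differences were far more often upward, with 1074 genes higher (9.08%) and 162 lower (1.37%). The groups did not overlap for 37.6% of genes. Of the 2164 tested genes with a copy, 829 were higher (38.3%) and 194 lower (8.96%), with a median log2 fold change of 0.33. Of the 9561 without one, 1083 were higher (11.3%) and 1341 lower (14.0%), with a median of -0.03. For the lists below, the shares of these 9561 genes are the background for members without a copy. For counts over all members, the shares over all 11823 genes, 16.3% and 13.1%, are the background. Without SD control 3, the count that fell among genes without a copy was 887. When these genes were normalized and tested alone, 1174 were higher and 1018 lower, and fold changes shifted up by a median of 0.05.

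The closer the copy, the higher the gene on HFD. Genes whose longest copy was 90% to under 95% identical had a median log2 fold change of 0.07, those at 95% to under 98% had 0.34 and those at 98% or more had 1.30. The shares called higher were 23.3%, 35.7% and 66.2%. Ribosomal proteins, which have many processed pseudogenes, were the extreme: 67 of 76 tested were higher and 1 was lower, with a median of 3.35. The count of 1 was 0 without SD control 2 or 3 or any HFD library. Rpl10 stood at 1.54, 0.792 and 1.5 CPM on SD and at 438, 421, 459 and 464 on HFD (8.40, SE 0.18, adjusted p = 3.18e-11). Rpl41, without a detected copy in its short coding model of 138 bases, was higher too (3.38, adjusted p = 3.8e-08). Of 31 genes with 0 counts in every SD library and at least 5 CPM in every HFD library, 22 had a copy, against 18.5% of the tested genes searched. The reverse pattern, 0 counts in every HFD library and at least 5 CPM in every SD library, held for 2 genes. The counts of 31 and 2 are not on equal terms, since the SD libraries had fewer counts. A total of 3 counts over a group stands for 0.355 CPM on SD and 0.0833 CPM on HFD, so 0 counts in every library is reached more easily on SD. Passing rises of at least 8-fold numbered 225 among genes with a copy and 115 among those without.

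**Figure D1:**
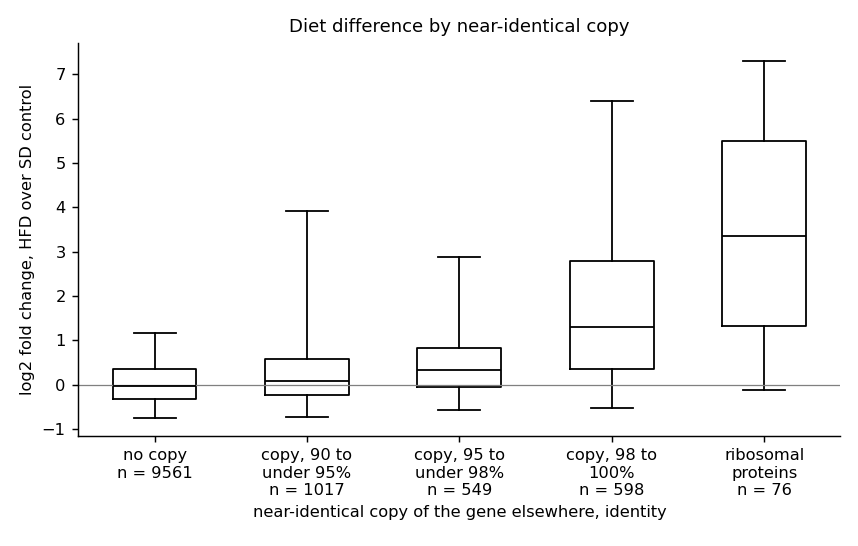
Log2 fold change (HFD over SD control) of tested genes by the identity of their longest near-identical copy, and of cytosolic ribosomal proteins, which also count in the other classes. Lines are medians (-0.03 without a copy, 1.30 at 98% or more, 3.35 for ribosomal proteins), boxes quartiles and whiskers the 5th and 95th percentiles.

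A weaker trend followed base composition. Among genes without a copy, the quintile with the lowest GC content (29.6% to 43.9%) had a median log2 fold change of -0.15, with 6.85% higher and 21.8% lower, and the quintile with the highest (55.2% to 72.5%) had a median of 0.23, with 17.5% higher and 4.83% lower. Several lipid and sugar genes described below are GC-rich, so for each gene the test was repeated after a trend on transcript length and GC content had been removed from every library. Unless a lost call is stated, the genes named below as higher or lower kept their call in each of the 16 alternatives in which they were tested (15 for Meg3), which include this one and the omission of each library in turn. Over all genes tested, 10.5% did so as higher and 6.02% as lower. A gene with a near-identical copy is marked as such, and whether its copy has a part in its difference was not tested.

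**Figure D2:**
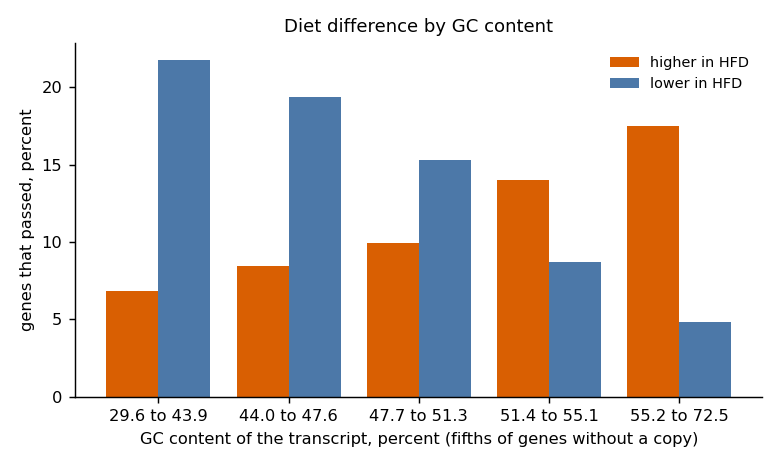
Share of genes without a near-identical copy that were higher (orange) or lower (blue) on HFD at an adjusted p under 0.05, in 5 equal classes by GC content of the transcript in percent. Calls go from mostly lower in the most AT-rich class (21.8% lower) to mostly higher in the most GC-rich class (17.5% higher).

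Among the genes of sugar metabolism, Khk and Pfkl were higher on HFD. Ketohexokinase (Khk), the first enzyme of fructose breakdown, stood at 113, 126 and 113 CPM on SD and at 331, 356, 287 and 334 CPM on HFD (2.79-fold, log2 1.48, SE 0.11, adjusted p = 6.72e-07). Every HFD library exceeded every SD library. The liver phosphofructokinase Pfkl was higher from a low level (1.80 to 3.96 CPM against 10.5 to 13.3 CPM, log2 2.17, SE 0.27). With the length and GC trend removed, Khk gave 1.24 and Pfkl 1.93.

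Other steps of glucose metabolism did not move with them. The bifunctional enzyme Pfkfb3, which makes the activator of phosphofructokinase, fell from 121, 47.2 and 71.6 CPM to 22.9, 21.0, 14.8 and 21.0 CPM (log2 -2.0, SE 0.25, adjusted p = 9.43e-05). The glucose transporter Slc2a2 fell from 847 to 1030 CPM to 494 to 616 CPM (-0.70, adjusted p = 0.000676). Of the gluconeogenic genes, Pck1 was lower (-0.48, adjusted p = 0.0412) with overlapping groups, and this was lost without SD control 1 (-0.33, adjusted p = 0.182) and when SD control 3 or any HFD library was left out (adjusted p 0.058 to 0.157). G6pc did not pass (-0.46, adjusted p = 0.177) but did without SD control 2 (-0.69, adjusted p = 0.0474). In all, 7 of 21 tested genes of glycolysis, gluconeogenesis and glycogen were higher and 4 lower, 3 and 2 of them in all alternatives, and the lower count was 2 without SD control 3. Without copies the counts were 6 and 4 of 20.

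Lipogenic genes split. The transcription factor gene Mlxipl was higher (126, 153 and 151 CPM against 236, 268, 226 and 296 CPM, log2 0.84, SE 0.12, adjusted p = 0.000306). Acaca, which makes malonyl-CoA and has a copy, was also higher (30.1 to 52.6 CPM against 101 to 157 CPM, log2 1.58, adjusted p = 6.47e-05). Srebf1 was not called different (77.0, 101 and 129 CPM against 97.4, 122, 120.0 and 110.0 CPM, log2 0.13, SE 0.16, adjusted p = 0.574). Fatty acid synthase (Fasn) stood at 108, 106 and 135 CPM on SD and at 340.0, 168, 280.0 and 109 CPM on HFD, so HFD controls 1 and 3 were high and control 4 lay within the SD range. Its call (0.94, SE 0.31, adjusted p = 0.0364) was lost without each SD library (adjusted p 0.0695 to 0.121), without HFD control 1 (0.0812) or 3 (0.0793), in DESeq2 (0.105), with all 12 libraries in the fit (0.0574) and after removal of the GC and length trend (0.0542). The desaturase Scd1, which makes monounsaturated fat and has a copy, spread even more, at 3320, 3490 and 7260 CPM on SD and 14600, 3580, 1580 and 702 CPM on HFD (0.13, SE 0.74, adjusted p = 0.919), and without HFD control 1 its log2 fold change was -1.26 (adjusted p = 0.0669).

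Over the 17 tested genes of de novo lipogenesis, 8 were higher and none was lower, with a median of 0.44 against 0.02 over all genes. At an unadjusted p under 0.05 the counts were 10 and 0. Of its 12 members without a copy, 6 were higher, a share of 50%, against the background of 11.3%. The count of 8 dropped to 5 without SD control 1, to 4 without SD control 3 and to 5 with the length and GC trend removed, and 3 members kept their call throughout. Without HFD control 1, 1 member passed as lower.

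**Figure D3:**
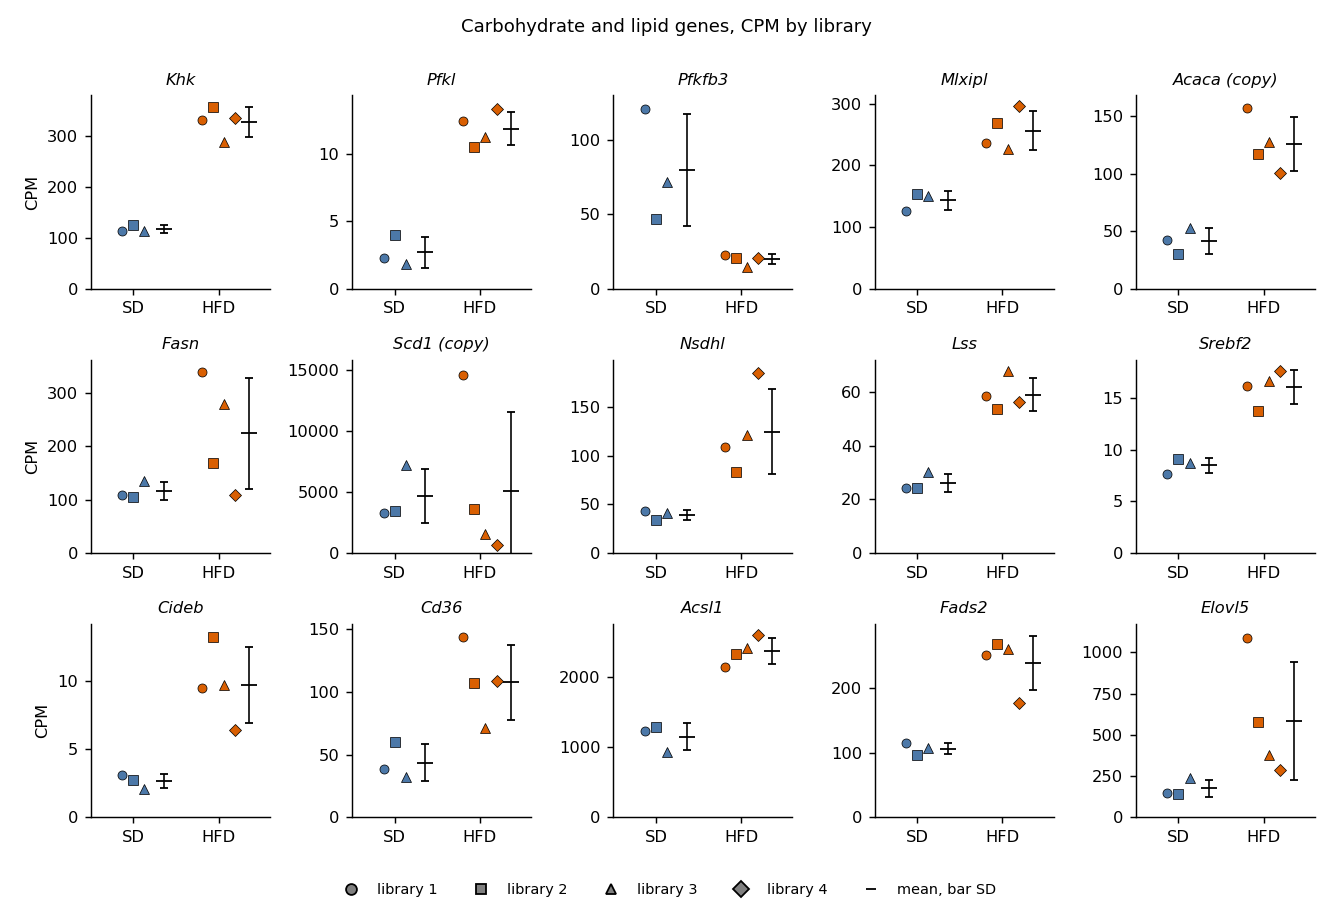
CPM of 15 carbohydrate and lipid genes in each library (SD blue, HFD orange, one marker shape per replicate number, horizontal tick mean, bar SD). Khk, Lss and Srebf2 are higher in every HFD library and Pfkfb3 is lower, whereas Scd1 spans 702 to 14600 CPM within HFD.

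Cholesterol synthesis genes were higher in part. Nsdhl, a C-4 sterol decarboxylating enzyme, stood at 42.7, 33.7 and 40.6 CPM on SD and 109, 83.6, 121 and 185 CPM on HFD (log2 1.67, SE 0.24, adjusted p = 0.000232). Lanosterol synthase (Lss) stood at 24.3, 24.2 and 30.1 CPM and at 58.4, 53.6, 67.7 and 56.4 CPM (1.17, SE 0.13, adjusted p = 4.09e-05). Groups did not overlap for either gene.

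The regulator Srebf2 itself was higher (0.92, adjusted p = 0.00212), as were Pmvk (1.13), which phosphorylates mevalonate phosphate, Hsd17b7 (1.01) and the last-step reductase Dhcr7 (0.82). Squalene epoxidase (Sqle) was higher with overlapping groups (0.77, adjusted p = 0.0151), and lost its call without SD control 1 (0.65, adjusted p = 0.0697), without SD control 3 (adjusted p = 0.0628) and with all 12 libraries in the fit (adjusted p = 0.17).

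In this list 11 of 25 tested genes were higher and 1 was lower, and 8 and 1 kept their call throughout. Among the 20 members without a copy, 9 were higher, or 45.0%, and 1 lower. The steepest members, Idi1 and Fdps (8.09 to 15.8 CPM against 84.6 to 147 CPM, log2 3.31, adjusted p = 5.74e-07), both have processed pseudogenes, at 100% and 98.9% identity. Without HFD control 3 the lower count was 3.

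Several lipid droplet and fatty acid uptake genes were higher on HFD. Cideb, a droplet and lipoprotein-lipidation protein, stood at 3.08, 2.77 and 2.11 CPM on SD and at 9.49, 13.2, 9.71 and 6.39 CPM on HFD (log2 1.88, SE 0.33, adjusted p = 0.00121). Other annotated genes overlap 76.3% of its exon sequence, and without stated strand use their reads cannot be told apart. The fatty acid translocase Cd36 stood at 38.9, 60.2 and 31.9 CPM and at 144, 107, 71.1 and 109 CPM (2.49-fold, log2 1.32, SE 0.25, adjusted p = 0.0017). HFD control 3 was nearest to the SD group, without overlap. The triglyceride lipase Pnpla2 (0.93), its co-activator Abhd5 (0.51) and the monoglyceride lipase Mgll (0.64) were higher too, as was the droplet coat gene Plin2 (1.19, adjusted p = 0.000887), which has a copy.

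Other markers of a fatty liver did not pass. Cidec, a droplet-fusion gene, stood at 1.93, 1.58 and 0.301 CPM on SD and at 7.43, 1.71, 1.81 and 1.92 CPM on HFD, so the difference (1.46, adjusted p = 0.188) came from HFD control 1, and without it was 0.59 (adjusted p = 0.43). Plin4 had the same shape, with 23.9 CPM in HFD control 1 and 7.0 to 8.06 CPM in the others (1.12, adjusted p = 0.144), and gave 0.46 without that library and 1.71 without SD control 1. Pparg was at 11.9, 13.5 and 12 CPM against 16.6, 7.70, 10.9 and 17.1 CPM (0.08, adjusted p = 0.869). Cidea had 0 counts on SD and 3 in all on HFD and was not tested. Of the 16 tested genes of this list, 7 were higher and none lower (median 0.72), with 9 and 0 at an unadjusted p under 0.05. Without copies 6 of 15 were higher. Without HFD control 1, 1 passed as lower.

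Among genes of fatty acid uptake and activation, 5 of 13 tested were higher and 1 lower. Acyl-CoA synthetase Acsl1, which activates fatty acids for use, stood at 1240, 1290 and 932 CPM on SD and at 2150, 2330, 2420 and 2600 CPM on HFD (log2 1.04, SE 0.14, adjusted p = 0.000122). The transporters Slc27a1 (1.88), at a low level, and Slc27a5 (0.68), and the intestinal-type binding protein Fabp2 (0.75) were also higher. The liver-type binding protein Fabp1 was the lower member (-0.46, adjusted p = 0.0123), a call lost without SD control 2 (-0.35, adjusted p = 0.0573), while without HFD control 3 there were 2 lower members.

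Polyunsaturated fatty acid synthesis was higher in 4 of 6 tested genes, all without copies (median 0.68), and 3 kept the call throughout. The delta-6 desaturase Fads2 stood at 115, 96.7 and 108 CPM on SD and at 252, 268, 260.0 and 177 CPM on HFD (1.16, SE 0.15, adjusted p = 9.5e-05). The elongase Elovl5 stood at 151, 141 and 237 CPM and at 1090, 579, 380.0 and 288 CPM (1.73, SE 0.39, adjusted p = 0.00515), with HFD control 1 far above its group. Fads1, the delta-5 desaturase, was higher by 0.64 (adjusted p = 0.00284). All 3 were without overlap.

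Fatty acid oxidation genes showed no common direction, with 3 of 31 tested higher and 7 lower (median -0.12), and without copies 1 and 3 of 22. The lower count was 4 without SD control 2, SD control 3 or HFD control 3, and the higher count was 5 without HFD control 3. Cpt1a, which admits fatty acids to mitochondria, was not called different (924, 798 and 779 CPM against 835, 801, 951 and 841 CPM, log2 0.04, SE 0.11, adjusted p = 0.822), and its groups overlapped. Cpt2, the inner-membrane partner, fell (140.0 to 194 CPM against 110.0 to 126 CPM, -0.51, adjusted p = 0.00622). The PPAR alpha target Cyp4a14 ranged from 66.0 to 1060 CPM within HFD and did not pass (-0.34, adjusted p = 0.733), with -1.13 without HFD control 4. Acot1, a thioesterase, fell (-1.76, adjusted p = 3.57e-05) and has a copy.

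For triglyceride export, the transfer protein Mttp fell from 276, 259 and 263 CPM to 186, 201, 201 and 191 CPM (log2 -0.45, SE 0.09, adjusted p = 0.00253). Apob, the core protein of the particle, was lower (37200, 33200 and 34800 CPM against 24500, 24000, 23600 and 23000 CPM, -0.56, adjusted p = 0.00446), but after removal of the length and GC trend it gave -0.23 (adjusted p = 0.159). The acyltransferases Agpat2 (0.61) and Agpat3 (0.68) were higher. Apoa4, an apolipoprotein of triglyceride-rich particles, stood at 25.8, 45.6 and 22.9 CPM on SD and at 245, 125, 186 and 147 CPM on HFD (5.65-fold, log2 2.50, SE 0.27, adjusted p = 2.64e-05). Apoa1, of high density lipoprotein, was higher (0.76, adjusted p = 0.00746) and Apoc3, an inhibitor of lipoprotein lipase, lower (-0.46, adjusted p = 0.00739). Over 21 apolipoprotein and lipoprotein genes, none with a copy, 6 were higher and 4 lower.

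Methionine and betaine metabolism, which supplies methyl groups for phosphatidylcholine, was higher in 5 of 14 tested genes, but in 2 of the 8 without a copy. Cystathionine beta-synthase (Cbs), without a copy, stood at 63.5, 96.3 and 74.0 CPM on SD and at 157, 176, 175 and 157 CPM on HFD (1.09, SE 0.14, adjusted p = 8.1e-05). Ahcy (2.21) and Bhmt (2.76) have copies at 99.7% and 99.4% identity. Bhmt was at 1180 CPM in SD control 1 and at 323 and 365 CPM in the other two, against 3650 to 4620 CPM on HFD, and gave 3.61 without SD control 1. Pcyt2, of phosphatidylethanolamine synthesis, was higher (1.23, adjusted p = 5.27e-05), while 2 of 18 phospholipid genes in all were higher and 3 lower. The count of 2 was 1 without SD control 2, SD control 3 or HFD control 4.

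Bile acid genes moved in both directions. The sterol 12-alpha-hydroxylase Cyp8b1, which sets the share of cholic acid, stood at 47.0, 19.8 and 16.8 CPM on SD and at 61.6, 86.1, 101 and 93.9 CPM on HFD (3.10-fold, log2 1.63, SE 0.29, adjusted p = 0.00127), and gave 2.23 without SD control 1. The alternative-pathway hydroxylase Cyp7b1 fell from 341, 284 and 264 CPM to 92.9, 98.6, 242 and 120.0 CPM (-1.10, SE 0.27, adjusted p = 0.00974), and HFD control 3 was nearest to the SD range. Amacr, a racemase of side-chain shortening, fell (276 to 295 CPM against 141 to 175 CPM, -0.83, adjusted p = 6.34e-05).

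The rate-limiting hydroxylase Cyp7a1 stood at 2410, 324 and 729 CPM on SD and at 1060, 1120, 1610 and 1160 CPM on HFD (0.10, SE 0.47, adjusted p = 0.897). SD control 1 was the highest of all 7, and without it the difference was 1.23 (adjusted p = 0.0107). Nr0b2, the repressor of bile acid synthesis, was not called different (-0.39, adjusted p = 0.333). In the list, 6 of 14 were higher, among them the sterol carrier Scp2 (1.86), which has a copy, and 2 were lower. Of bile acid and sterol transporters, none of 13 was higher and 4 were lower (0 and 6 at an unadjusted p under 0.05, median -0.36), among them the canalicular pump Abcc2 (1090 to 1350 CPM against 732 to 864 CPM, -0.67, adjusted p = 0.000839). The lower count was 2 without SD control 2, SD control 3 or HFD control 3.

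Drug-metabolising cytochromes were lower in 6 of 26 tested members and higher in 2, and without copies in 3 and 1 of 10. Cyp3a11, the main Cyp3a enzyme of mouse liver, fell from 3370, 5040 and 3320 CPM to 717, 600.0, 175 and 578 CPM (7.56-fold lower, log2 -2.92, SE 0.36, adjusted p = 7.47e-05). Its nearest copy is 94.7% identical. Cyp2c55, without a copy, fell from 18.9, 24.6 and 20.2 CPM to 8.15, 5.50, 4.63 and 3.96 CPM (-1.90, SE 0.24, adjusted p = 9.39e-05). Cyp2c29 fell from 5400, 5950 and 5680 CPM to 1900, 4230, 2540 and 3820 CPM (-0.86, adjusted p = 0.0121), and Cyp2c70, which makes the muricholic acids of mice, by 0.78 on the log2 scale (adjusted p = 0.000523). All 4 were without overlap. Cyp1a2, which has a copy, did not pass (-0.17, adjusted p = 0.401). Without SD control 1, HFD control 2 or HFD control 4 the higher count was 1, without SD control 3 it was 0 and without HFD control 3 it was 4. Of 32 conjugation enzymes, 9 were lower and 4 higher, and without SD control 2 the counts were 5 and 2. Among the 14 conjugation enzymes without a copy, 6 were lower and 1 higher.

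Genes that are normally higher in female liver were higher on HFD in 4 of 8 tested, in these male mice. Cyp17a1, a steroid hydroxylase, stood at 3.85, 6.34 and 2.41 CPM on SD and at 10.3, 33.4, 44.5 and 29.0 CPM on HFD (2.84, SE 0.53, adjusted p = 0.00172). The peroxisomal transporter Abcd2 was higher too (7.70 to 21.4 CPM against 28.4 to 45.1 CPM, 1.16, adjusted p = 0.00669). Cyp2b9, which has a copy, stood at 2.70, 13.1 and 6.62 CPM and at 208, 221, 2.26 and 111 CPM, so HFD control 3 was below every SD library (4.2, adjusted p = 0.0131). That call was lost without SD control 1 (3.83, adjusted p = 0.0574) or 3 (4.11, adjusted p = 0.0624). Slc16a5 was higher (1.43, adjusted p = 0.0207) but lost its call without any of the SD libraries (adjusted p 0.0635 to 0.0821). The count of 4 was 2 without SD control 1 or SD control 3.

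Male-biased and growth hormone regulated genes were lower in 5 of 27 tested and higher in 2, and without copies in 2 and none of 11. The count of lower members was 9 without HFD control 3, and that of higher members was 1 without SD control 3, HFD control 1 or HFD control 4. Cyp4a12a, a male-specific hydroxylase with a copy, fell (217 to 374 CPM against 73.9 to 164 CPM, -1.47, adjusted p = 0.000881). Mup20, a male urinary pheromone protein with 20 copies by this search, rose from 1350, 1700 and 963 CPM to 16300, 4430, 10400 and 4540 CPM (6.66-fold, log2 2.74, adjusted p = 0.00051). Igf1 was lower (-0.34, adjusted p = 0.0321), a call lost in 8 of the alternatives, among them the removal of the length and GC trend (-0.16, adjusted p = 0.308), and without SD control 1, SD control 2, HFD control 2, HFD control 3 or HFD control 4 (adjusted p 0.0674 to 0.12).

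**Figure D4:**
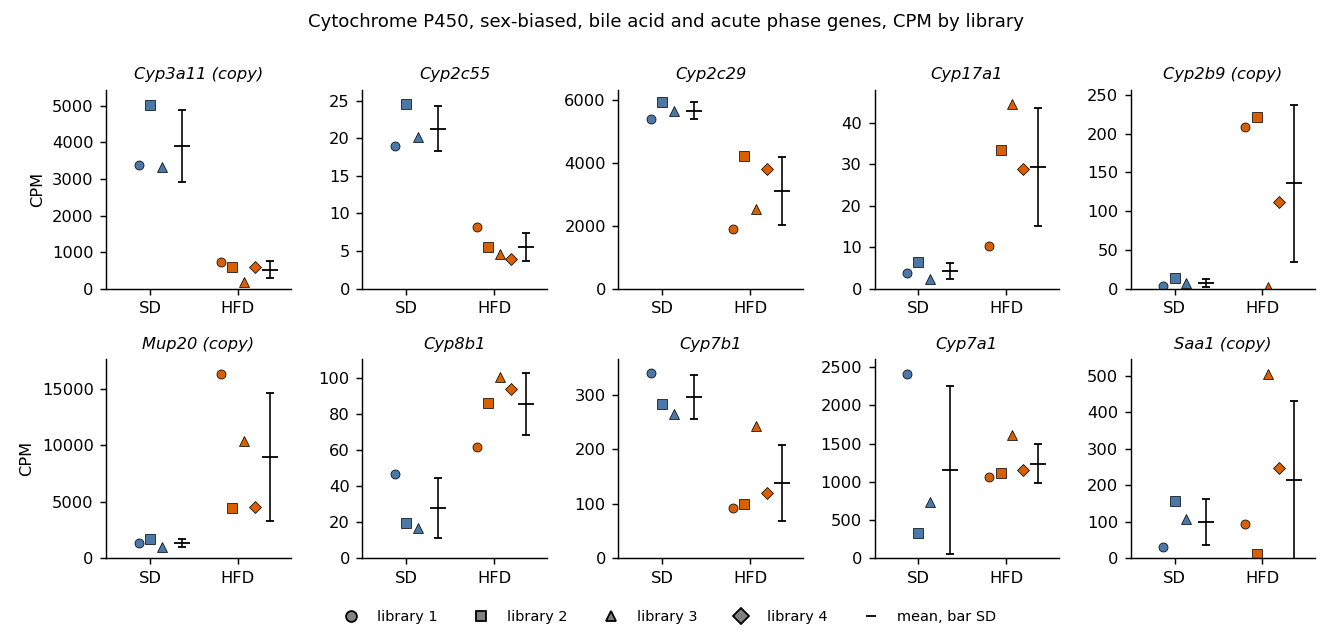
CPM of 10 cytochrome P450, sex-biased, bile acid and acute phase genes in each library (SD blue, HFD orange, one marker shape per replicate number, horizontal tick mean, bar SD). Cyp3a11 and Cyp2c55 are lower in every HFD library, and Cyp7a1 on SD spans 324 to 2410 CPM.

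Insulin-responsive genes outside glucose metabolism gave weak differences. Igfbp1, which insulin represses, was lower (84.3, 54.3 and 117 CPM against 44.2, 54.6, 47.5 and 30.8 CPM, -0.95, adjusted p = 0.00803), with overlap, and lost its call without SD control 3 (-0.65, adjusted p = 0.0689) and with all 12 libraries in the fit (adjusted p = 0.0617). Igfbp2 was lower (-0.71, adjusted p = 0.0335) but lost its call without any SD library or without HFD control 3 (adjusted p 0.0527 to 0.136). Of 18 genes of insulin and IGF signalling, 4 were lower and 1 higher. The lower count was 1 without SD control 1, 2 or 3 or HFD control 3 and 2 without HFD control 2, where the higher count was 2. Fgf21, a fasting and nutrient hormone, had 0 counts in SD controls and 32 in all on HFD (1.16, 0.122, 1.13 and 1.02 CPM), and was too low for the fit. Its HFD mean was at least 2.42-fold higher than the limit of 0.355 CPM that 3 counts over the SD group allow. HFD control 2 lay below that limit.

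Acute phase genes had no common direction, with 2 of 26 tested higher and 4 lower. Haptoglobin (Hp) rose from 348, 414 and 433 CPM to 978, 832, 1520 and 1550 CPM (3.06-fold, log2 1.61, SE 0.21, adjusted p = 0.000125). The fibrinogen gene Fgg fell (4730, 6530 and 6880 CPM against 3050, 3040, 3930 and 4230 CPM, -0.76, adjusted p = 0.00423). Serum amyloid Saa1, which has a copy, ranged from 11.7 to 503 CPM on HFD and did not pass (1.12, adjusted p = 0.351), with 0.25 without HFD control 3. Saa2, which has a copy too, passed without HFD control 2 (2.35, adjusted p = 0.0379) and gave 0.55 without HFD control 3 (main value 1.95, adjusted p = 0.179). Lcn2 likewise passed without HFD control 2 (2.41, adjusted p = 0.00192; main value 2.04, adjusted p = 0.0618). The iron hormone Hamp, which has a copy, was not called different (-0.02, adjusted p = 0.981). Without HFD control 2 the count of higher members was 6, without SD control 2 or SD control 3 it was 1, and without SD control 3 the lower count was 1.

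Antigen presentation genes gave 5 higher and 1 lower of 13, but 1 and 1 of the 7 without a copy. The light chain B2m fell from 6910, 7830 and 7250 CPM to 4210, 3870, 3620 and 3650 CPM (-0.93, SE 0.11, adjusted p = 7.27e-05). The immunoproteasome subunit Psmb9 rose (6.92 to 15.5 CPM against 22.1 to 29.0 CPM, 1.35, adjusted p = 0.00122), and so did the class II invariant chain Cd74 (8.47 to 31.3 CPM against 34.3 to 68.4 CPM, 1.31, adjusted p = 0.0112). Of interferon response genes, 3 of 28 were higher and 1 lower. The higher count was 6 without HFD control 4, and the lower count was 0 without SD control 1, SD control 2, HFD control 1 or HFD control 3.

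The peroxisomal enzyme catalase (Cat) fell from 13700, 13600 and 12400 CPM to 7100, 7290, 6420 and 6980 CPM (-0.93, SE 0.12, adjusted p = 7.87e-05). Mitochondrial superoxide dismutase (Sod2) rose from 137, 142 and 135 CPM to 246, 246, 235 and 282 CPM (0.87, SE 0.10, adjusted p = 4.73e-05). Neither gene has a copy, and the groups did not overlap. Nfe2l2, the gene of the antioxidant regulator NRF2, fell (-0.66, adjusted p = 0.00175). Among 17 NRF2 and glutathione genes, 7 were higher and 4 lower, and without copies 4 and 4 of 13. Without SD control 3 the lower count was 2.

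Clock genes that passed were higher, 6 of 19 with none lower (8 and 0 at an unadjusted p under 0.05, median 0.23), and 4 of the 17 without a copy. The repressors of the clock's negative limb Per1 (18.1, 14.7 and 17.1 CPM against 33.8, 29.6, 36.6 and 31.1 CPM, 0.98, adjusted p = 0.000287), Per3 (0.65) and Cry2 (0.64) were without overlap. The labels do not give the hour at which the livers were taken. Amino acid breakdown genes were higher in 5 of 30 and lower in 2, against 16.3% and 13.1% over all genes tested. The higher count was thus near the share over all genes, and the 5 kept their call throughout. Proline dehydrogenase Prodh stood at 41.2, 43.2 and 45.4 CPM and at 110.0, 110.0, 92.8 and 103 CPM (1.26, SE 0.11, adjusted p = 3.31e-06). Hpd (0.86), of tyrosine, Haao (0.76), of tryptophan, and the alanine aminotransferase Gpt (0.91) were the others named by the smallest p. The lower count was 1 without SD control 2, SD control 3, HFD control 2, HFD control 3 or HFD control 4.

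Of 25 tested transcription factors of the hepatocyte, 2 were higher and 5 lower, near the share over all genes (29.4% either way). Cebpb fell (24.6 to 33.9 CPM against 16.4 to 19.8 CPM, -0.80, adjusted p = 0.00164, with 20.7% of its exon sequence overlapped by another gene). Without SD control 2 the higher count was 4. The floxed gene Nr5a2, which has a copy, was at 83.2, 73.7 and 84.5 CPM on SD and at 76.0, 73.3, 63.4 and 65.7 CPM on HFD (-0.21, SE 0.11, adjusted p = 0.169). Nnt, which is mutated in some C57BL/6 substrains, was not called different either (-0.09, adjusted p = 0.567).

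Some markers of position in the lobule passed in each zone. Over all genes tested, 16.3% were higher and 13.1% lower, and the pericentral counts did not stand far above these shares. Periportal genes were lower in 5 of 15 tested and higher in 2, with Pigr, which carries immunoglobulin into bile, falling from 2170, 2320 and 2200 CPM to 1350, 1550, 1430 and 1580 CPM (-0.59, adjusted p = 0.00119). Ctsc fell with overlap (-0.96, adjusted p = 0.00604) and Mfsd2a, a lysolipid transporter, rose (1.10, adjusted p = 0.00723). Among 17 pericentral genes 3 were higher and 1 lower, with Slc13a3, a dicarboxylate transporter, rising from 5.78, 9.91 and 8.42 CPM to 29.9, 22.6, 20 and 17.6 CPM (1.49, adjusted p = 0.000669). The periportal lower count was 3 without SD control 1 or 2 or HFD control 2 or 4 and 2 without SD control 3. The pericentral higher count was 1 without SD control 1, 2 or 3 or HFD control 2 or 4, and the lower count was 3 without SD control 2, 2 without HFD control 2 and 0 without SD control 3.

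Hepatocyte markers were present in every library, at 134000 to 166000 CPM summed on SD and 130000 to 138000 CPM on HFD, with 4 of 15 higher and 1 lower, or none lower without SD control 3, HFD control 1 or HFD control 2. Macrophage markers summed to 352 to 557 CPM and 303 to 710.0 CPM, with 1 of 18 tested higher (Clec4f, 0.68, adjusted p = 0.0448, with overlap). This call was lost without SD control 1 (0.51, adjusted p = 0.173), SD control 2 or HFD control 1, 3 or 4 (adjusted p 0.0615 to 0.113) and with the length and GC trend removed (adjusted p = 0.0643). Without HFD control 2 there were 2 higher macrophage markers, and 2 and 3 passed as lower without SD control 1 and HFD control 1. Endothelial markers summed to 409 to 505 CPM and 355 to 414 CPM, with 4 of 17 lower, among them Bmp2 (36.5 to 44.7 CPM against 19.1 to 24.8 CPM, -0.91, adjusted p = 0.000325). The count of 4 was 2 without SD control 3, HFD control 3 or HFD control 4. Stellate cell markers summed to 430.0 to 523 CPM and 389 to 559 CPM, with 2 of 14 higher and 1 lower. These were 1 higher without SD control 1 or 2 and none lower without SD control 2 or 3 or HFD control 3 or 4. The pericyte gene Rgs5 rose (18.2 to 25.3 CPM against 40.3 to 52.8 CPM, 1.13, adjusted p = 0.000127), as did the matrix protein gene Sparc (0.84, adjusted p = 0.00024). Of fibrosis and matrix genes, 1 of 21 was higher and 4 lower, and the latter count was 1 without SD control 1 and 2 without SD control 2, SD control 3, HFD control 3 or HFD control 4. Few markers of lymphocytes (2 tested), bile duct (5), fat (2), pancreas (1) or red cells (1) had enough counts, and none passed in edgeR. A single lymphocyte and a single red cell marker passed as higher without HFD control 4, 1 bile duct marker as lower without HFD control 1 or 2, after thinning and with the length and GC trend removed, and 1 fat marker as lower without HFD control 3. In bulk liver, fewer cells of a type and less RNA per cell cannot be told apart.

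The 12 largest rises under the naming rule began with Zfp488, Olfr613, Vmn1r58, Dcdc2c and Psg23, which encode a zinc-finger protein, an olfactory and a vomeronasal receptor, a doublecortin-domain protein and a pregnancy-specific glycoprotein. All 5 had 0 counts in every SD library. Zfp488 stood at 131, 125, 128 and 117 CPM on HFD, at least 353-fold higher than the limit of 0.355 CPM that 3 counts over the SD group allow. Tyr, the pigment-cell tyrosinase, was at 10.7, 11.4, 11.5 and 9.46 CPM, at least 30.3-fold higher. These are not liver genes by their known roles, and their values were nearly constant across the 4 HFD libraries. Olfr613, Vmn1r58, Psg23 and Zfp488 have a copy, whereas Dcdc2c (29.3 to 37.3 CPM) and Tyr do not. The largest rise among abundant transcripts, chosen after its value was seen, was that of the predicted gene Gm20594, from 5.01, 2.77 and 3.61 CPM to 12400, 12500, 11400 and 12700 CPM (11.65, SE 0.22, adjusted p = 1.54e-11). Lars2, the mitochondrial leucyl-tRNA synthetase, was picked in the same way and rose from 55.4, 82.4 and 68.0 CPM to 1710, 1610, 1930 and 2330 CPM (4.79, SE 0.19, adjusted p = 2.56e-09). Neither has a copy by the search, and the groups did not overlap. The search covered annotated GENCODE transcripts only, so a match to other sequence would be missed, and where these reads come from was not tested.

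The 12 largest falls held more genes without a copy. Hdc, the histamine-forming histidine decarboxylase, fell from 28.1, 34.9 and 37.0 CPM to 5.91, 8.06, 6.66 and 10.4 CPM (-2.12, SE 0.20, adjusted p = 6.44e-06). Raly, an RNA-binding protein gene next to the agouti locus, fell from 21.2, 21.4 and 18.9 CPM to 5.19, 4.40, 5.08 and 6.14 CPM (-1.97, adjusted p = 4.68e-06). The imprinted RNA Meg3 fell from 9.63, 2.77 and 3.01 CPM to 0.716 to 1.41 CPM (-2.30, adjusted p = 0.00421), and gave -1.5 (adjusted p = 0.0494) without SD control 1. Fetub, a liver-secreted inhibitor of the cystatin family, fell from 499, 543 and 573 CPM to 188, 246, 281 and 278 CPM (-1.12, adjusted p = 6.83e-05), though it was named by its list and not by size.

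In 2 further lists the members with and without a copy differed in their counts. Of 20 heat shock and immediate early genes, 6 were higher, all 6 with a copy, as Hspa8 (67.7 to 85.9 CPM against 951 to 1120 CPM, 3.79, adjusted p = 8.84e-10), and none of the 13 without a copy was higher. Of 48 nuclear-encoded subunits of the respiratory chain, 15 were higher and 13 lower, but without copies 4 and 10 of 32. Cytochrome c (Cycs), with 10 copies, was at 0.902 to 4.36 CPM on SD and 200 to 248 CPM on HFD (6.37, adjusted p = 2.92e-09). The nuclear RNAs Malat1 (1.12, adjusted p = 0.000273) and Neat1 (1.29, adjusted p = 0.000203) rose without having a copy, and Rn45s rose by 1.73 (adjusted p = 2.88e-06). Over all lists, the shares of members without a copy that passed are drawn in the chart of gene lists.

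**Figure D5:**
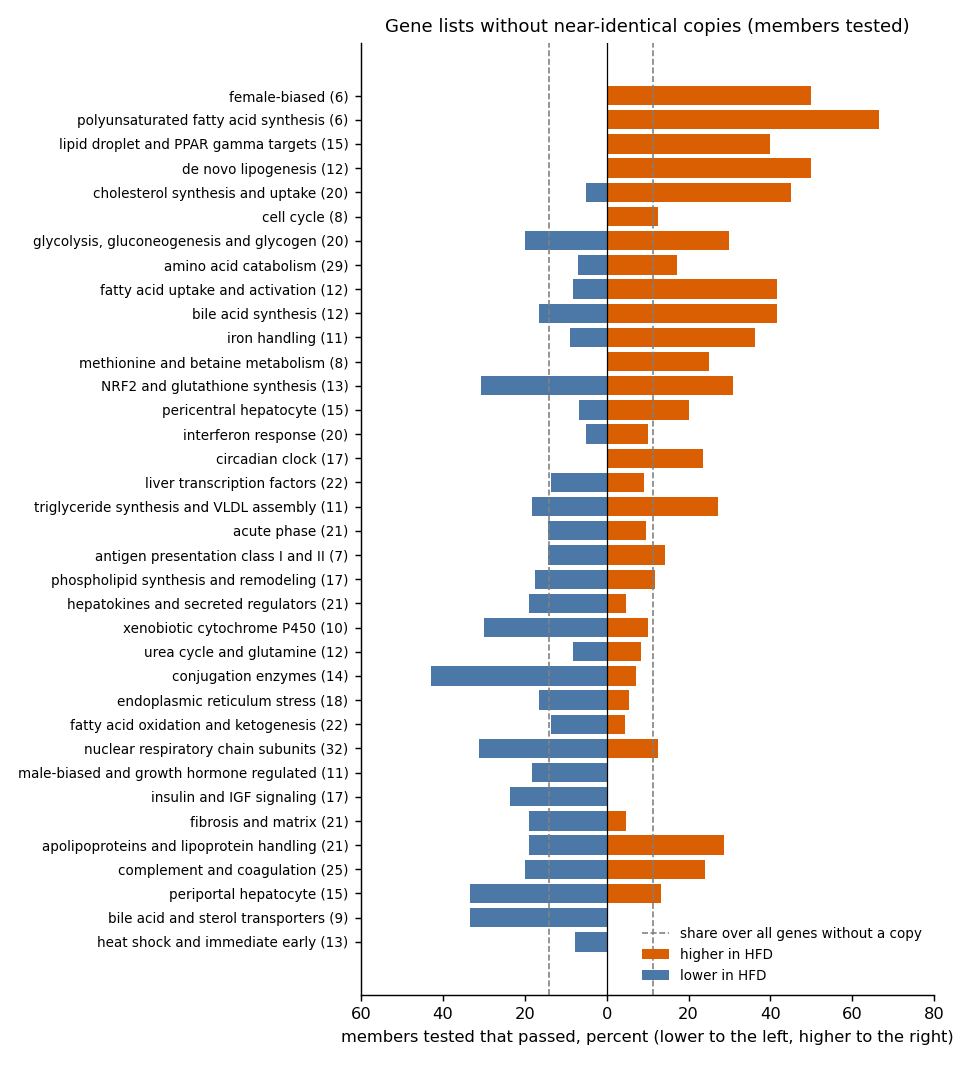
Share of tested members without a near-identical copy that were higher (orange, right) or lower (blue, left) on HFD, in percent, for lists with at least 5 such members (number in brackets), ordered by median log2 fold change. Dashed lines mark the shares over all genes without a copy (11.3% higher, 14.0% lower), and the share of higher members is 66.7% for polyunsaturated fatty acid synthesis, 50% for lipogenesis and for female-biased genes, and 45.0% for cholesterol synthesis and uptake.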

How the data were processed

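Liver RNA for the 12 libraries was prepared for sequencing with the Nugen Ovation RNA-Seq System V2 from 1 ug of total RNA, per the labels' protocols. The 7 control libraries were used. For every library the authors deposited raw counts as whole numbers (24062 gene symbols), made with TopHat2 2.1.0, HTSeq and the build mm9, with DESeq2 1.14.1 also named, per the submitters' processing notes. Strand use and the handling of multiply mapping reads were not stated there, so a gene and an antisense or near-identical partner may share or lose reads. No line for unassigned reads was in the files.

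The 2 diets were compared by two-sided quasi-likelihood tests in edgeR 4.0.16, run under R 4.3.3, after TMM normalization, filterByExpr (minimum count 10) and Benjamini-Hochberg adjustment over the 11823 genes tested. Passing means an adjusted p below 0.05. CPM use the normalized library sizes. Replicate libraries of a group varied by 15.5% beyond counting noise (common biological coefficient of variation). The limit that a count of 0 allows is 3 counts over a group, 0.355 CPM on SD and 0.0833 CPM on HFD, and covers counting error only. The scripts were tested on simulated data.

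Near-identical copies were sought with blastn 2.17.0 among GENCODE M21 transcripts (GRCm38). A copy was at least 90% identical over 100 coding bases, or over 200 bases of a pseudogene. Of the tested genes, 99.2% could be searched and 18.5% of those had a copy. Because that build differs from mm9, its coordinates are given for the printed sequences alone. Thinning, other normalizations, DESeq2 1.42.0, a length and GC trend fitted with mgcv, the replicate block and left-out libraries were alternatives.

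The libraries, the 48 gene lists (textbook liver biology, and ribosomal proteins by symbol) and the tests were chosen with earlier results of these data known, and the copy search after seeing the data. Named genes were the 12 largest rises and falls among passing genes of at least 5 CPM without overlap, up to 4 per list with the smallest p, and a fixed set. Slc2a2, Nsdhl, Srebf2, Pmvk, Hsd17b7, Dhcr7, Abhd5, Mgll, Slc27a1, Fabp1, Cpt2, Apoc3, Cyp2c29, Nfe2l2, Cd74, Psme2, Rpl14, Rpl41, Gm20594 and Lars2 were added after their values were seen. Some genes are not reported here.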

Additional observations from a re-analysis of the deposited data

Results flagged for a closer look

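Among the genes named above, 6 had a library that stood far from the other 3 HFD controls by Dixon's test of the gap over the range. Chance flags about 1 in 20 groups, and 128 genes were examined. Cidec was at 7.43 CPM in HFD control 1 and at 1.71 to 1.92 CPM in the others, and Plin4 at 23.9 CPM in the same library against 7.0 to 8.06 CPM. Malat1 was also highest there, at 13400 CPM against 11300 to 11600 CPM. Abcd2 was at 45.1 CPM in HFD control 2 against 28.4 to 31.2 CPM, Haao at 285 CPM against 245 to 249 CPM, and Cebpb at 19.8 CPM against 16.4 to 16.7 CPM.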

How the results depend on the processing

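Over all genes tested, the number passing stayed within 1.5 times the reported 3475 under RLE normalization, TMM without ribosomal genes, no filter, all 12 libraries, thinning, trend removal, the replicate block and DESeq2, and ran from 2517 without SD control 3 to 3161 without HFD control 1 when a library was left out. The fit on genes without a copy, chosen after seeing the data, gave 2192 passing genes, 1174 higher and 1018 lower, 613 of them by at least 2-fold against 1236 over all genes, with 9561 genes tested in place of 11823 and without the 225 genes with a copy that passed and were at least 8-fold higher. Genes without a copy that were lower numbered 887 to 1196 and those higher 757 to 969 when a library was left out. Of 128 named genes tested, 110 passed and 11 of these lost the call in some alternative, 7 others gained one and no call reversed. The replicate numbers do not pair the libraries: correlations of deviations between same-numbered libraries were -0.004, -0.049 and 0.016 over genes, and the replicate block, where HFD control 4 has no partner, gave 1664 higher and 1216 lower. Under the block Plin4 (1.16, adjusted p = 0.00693) and Cyp4a14 (-1.64, adjusted p = 0.00462) passed, as did 1 lymphocyte and 1 red cell marker (higher) and 1 bile duct marker (lower), and Pck1, Fabp1, Igf1 and Clec4f did not. No SD library correlated best with its own number. At SD depth a gene with 0 counts in a library may be at up to 0.902 to 1.19 CPM, which limits what can be said of low genes such as Cidea.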
